A study of Mus musculus with 12 samples.

Results

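The comparison of IL-34 with CSF-1 in forebrain microglia used 6 of the 12 libraries of the series, chosen by their labels. Microglia, the resident macrophages of the brain, were taken from wild-type mouse forebrain mixed glial cultures, in which astrocytes and microglia grow together. They were then kept for 24 hours with CSF-1 at 20 ng/ml (3 libraries) or with IL-34 at 100 ng/ml (3 libraries), and the design text describes each library as coming from an independent culture. The labels give no strain, sex or age, and only the name of the deposited table calls the microglia neonatal. No library was made without a ligand, so a gene lower with IL-34 is equally a gene higher with CSF-1, and the ligand cannot be told apart from its dose. The remaining 6 libraries, cerebellar microglia under the same ligands and doses, entered the fits to estimate the spread and are shown only where the forebrain difference is set beside theirs. Every label gives mouse as the source, except that the text on RNA extraction mentions human tissue.

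CSF-1 and IL-34 share no sequence similarity to speak of, yet each binds the receptor tyrosine kinase CSF1R, the product of Csf1r. Ligand binding pairs receptor molecules and starts the RAS-ERK and PI3K-AKT pathways, which hold microglia alive and drive their division through MYC and the D cyclins. In the mouse brain IL-34 comes mainly from forebrain neurons and CSF-1 mainly from glia, with CSF-1 the main source of signal in the cerebellum. Which genes of a microglia respond differently to the ligands in the same dish is the question this comparison puts.

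Values are TPM, the relative abundance of a transcript corrected for its length and scaled to the same total in each library, summed here over the transcripts of a gene. Of the forebrain libraries, each had 11740 to 11899 genes at 1 TPM or more, and mitochondrial genes took 0.725 to 0.922% of TPM. Across genes, Pearson's r was 0.972 to 0.988 between libraries of the same ligand (6 pairs) and 0.970 to 0.988 between libraries of different ligands (9 pairs). These ranges overlap, so this measure did not set the libraries apart by ligand. Short transcripts were listed unevenly across libraries, and whether this arose in library preparation or in quantification was not tested. Among transcripts of at least 5 TPM, the first percentile of length was 621, 598 and 669 nt in the CSF-1 libraries and 669, 632 and 621 nt in the IL-34 libraries. Tyrobp, the signalling partner of TREM2, whose transcripts average 588 nt, was listed at 856, 1007 and 0 TPM with CSF-1 and at 0, 276 and 649 TPM with IL-34 (0 in the library of each ligand with the 669 nt limit). Pf4, a marker of border-associated macrophages, was at 0 in the same 2 libraries. Both genes enter the marker sums given next, and neither is read as a ligand difference.

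The cells carried the RNA of microglia grown in culture. Csf1r stood at 1128, 1234 and 1246 TPM with CSF-1 and at 1331, 1202 and 1189 TPM with IL-34, and the purinergic receptor gene P2ry12 and Tmem119, which mark microglia in the intact brain, stood at only 9.93 to 11.7 and 7.15 to 9.91 TPM over the 6 libraries. The 15 markers of microglia and macrophages summed to 15947 to 17096 TPM with CSF-1 and 16595 to 17672 TPM with IL-34. Astrocyte markers summed to 33.1 to 34.7 and 30.7 to 34.1 TPM. Their highest members over the 6 libraries were Aldoc (7.91 to 10.6 TPM) and Gfap (5.79 to 8.22 TPM), and Gjb6 was at 0 throughout. Oligodendrocyte markers summed to 131 to 153 and 126 to 136 TPM. The highest were Cnp (67.3 to 79.9 TPM), Mbp (36.6 to 43.6 TPM) and Cspg4 (13.8 to 23.9 TPM), with Mog at 0 throughout. Neuronal markers came to 2.08 to 5.23 and 2.28 to 3.94 TPM, and mesenchymal markers to 97.9 to 124 and 90.1 to 106 TPM. The highest mesenchymal member was Fn1 (56.6 to 75.1 TPM), followed by Cspg4, which is also in the oligodendrocyte list. Markers of border-associated macrophages, macrophages at the brain's surfaces whose genes cultured microglia also express, came to 2261 to 2370 and 2270 to 2516 TPM. Markers of endothelial cells came to 10.2 to 15.5 and 11.04 to 13.6 TPM, of choroid plexus and ependyma to 2.65 to 4.03 and 3.16 to 4.58 TPM, and of neutrophils, lymphocytes and dendritic cells to 1.73 to 2.35 and 2.33 to 2.55 TPM. The ranges of the ligands overlapped for each of the 9 marker lists, and of all their members only Ctss passed the test described next. In bulk RNA, fewer cells of a type and less RNA per cell cannot be told apart.

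With IL-34 in place of CSF-1, growth and division genes such as Ccnd1, Myc, Rrm2 and Mcm5, the chemokine genes Ccl2 and Ccl7, the urokinase genes Plau and Plaur and the oxysterol enzyme gene Ch25h were lower. Higher with IL-34 were the lysosomal genes Atp6v0d2, Ctsl and Ctss, Gpnmb, the fatty acid carrier gene Fabp5, the CD200 receptor family gene Cd200r4, Ms4a4a, the chemokine receptor gene Cxcr4 and the growth factor gene Hgf. Of 12419 genes tested with limma on log2(TPM + 1), 149 passed at an adjusted p under 0.05 (1.20%), 53 higher (0.427%) and 96 lower with IL-34 (0.773%). At an unadjusted p under 0.05 there were 1769 genes. The differences were small. As the ratio of the 2 group means in TPM, the median change was 1.36-fold among the higher and 1.34-fold among the lower genes, 116 of the 149 changed by less than 1.5-fold, and 5 changed by more than 2-fold. In each of the 149 the 3 IL-34 libraries lay wholly above or wholly below the 3 CSF-1 libraries, a separation that 18.5% of all genes tested showed (5.90% higher, 12.6% lower). The 95% interval of the log2 fold change, on log2(TPM + 1), lay within 1 either way for 11395 genes (91.8%). For these a larger ligand difference on that scale lay outside the interval. The scale understates changes of low genes, so their ratio in TPM can be larger.

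**Figure D1:**
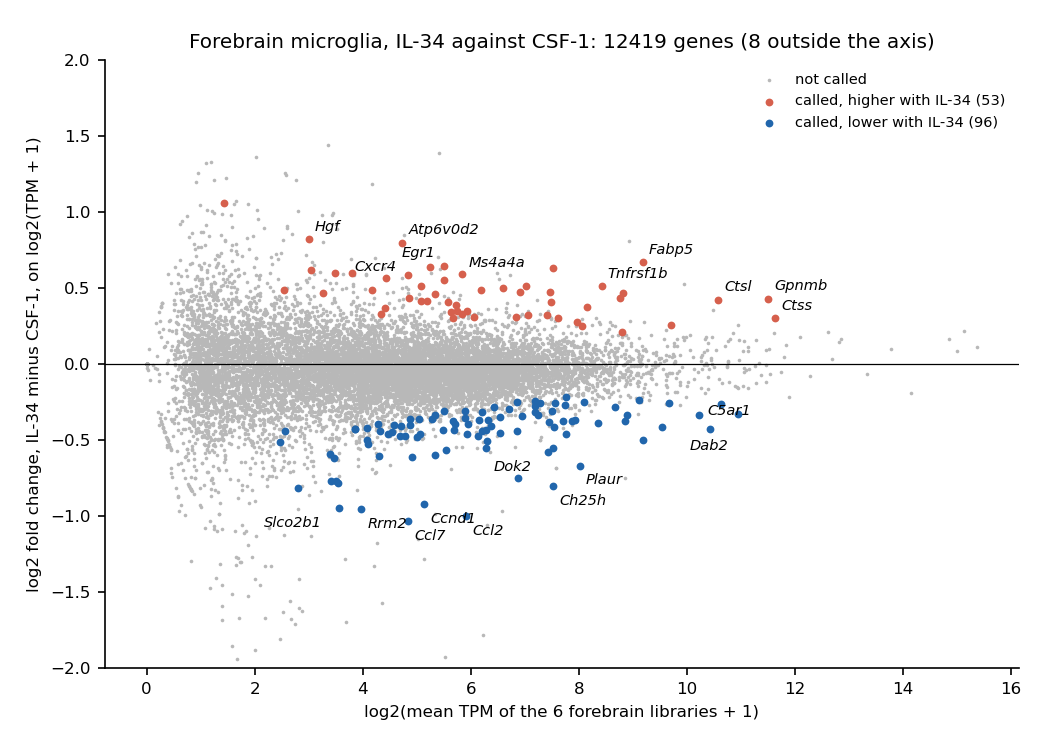
Each point is 1 of 12419 genes, with its mean level in the 6 forebrain libraries, as log2(TPM + 1), on the horizontal axis and its log2 fold change, IL-34 minus CSF-1, on the vertical axis; 53 genes called higher are red, 96 called lower are blue, and 8 genes lie beyond the axis. Called genes lie mostly within 1 log2 unit of 0, and Gpnmb and Ctss are called at a higher level than any other gene labelled.

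How many genes passed depended on the fit. Fitted on the 6 forebrain libraries alone, limma called 0 genes (smallest adjusted p = 0.0622, 1646 genes at an unadjusted p under 0.05), and all 149 genes had an unadjusted p under 0.05 there. When only transcripts of 1000 nt or more were summed and each library's smooth trends with length and GC content were taken out, 892 of 11125 genes passed (8.02%), 463 higher (4.16%) and 429 lower (3.86%), and 138 of the 146 genes measured in both fits passed in the same direction. Over all genes the median log2 fold change was -0.04, and scaling by the median of ratios gave 137 higher and 112 lower genes and quantile normalization 87 and 78, so the excess of lower genes was not seen on those scales. Of the 149, 141 and 129 passed there in the same direction. Leaving out 1 library at a time, the count fell to 29 without IL-34 replicate 2, 58 without CSF-1 replicate 2, 62 without CSF-1 replicate 3, 70 without IL-34 replicate 3 and 92 without cerebellar CSF-1 replicate 2. Median GC content was 54.4% in the lower genes, 48.6% in the higher genes and 50.1% in all genes tested.

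Of the 149 genes, 28 passed in all 12 fits that each left out 1 library. The 14 lower ones were Ccl2, Slco2b1, Ch25h, Nid2, Plaur, Dok2, Klf2, St3gal5, Myc, Tubb6, Dab2, Tm6sf1, Lat2 and Plp2, and the 14 higher ones were Ctss, Fam20c, Cd274, Gpnmb, Cybb, Csf3r, Pla2g7, Clec4a3, Tnfrsf1b, Cd200r4, Cxcr4, Ms4a4a, Fam46c and Atp6v0d2. Several of these 28 fall outside the rule by which genes are named and were listed after their values were seen. Of the 56 called genes that the rule names by fold change, list or receptor, 18 passed without IL-34 replicate 2. In what follows, the number of these 12 fits in which a called gene passed is given where it was under 10. Among the called genes named here, Prmt1, Hnrnpa1 and Ppp1r18 lost their call under median-of-ratios scaling. Phlda1, Ptgs2, Adam8, Hspa8, Cxcl16, Prmt1 and Hnrnpa1 lost it under quantile normalization, and Ccl2, Ldhb and Pex3 with trends taken out.

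**Figure D2:**
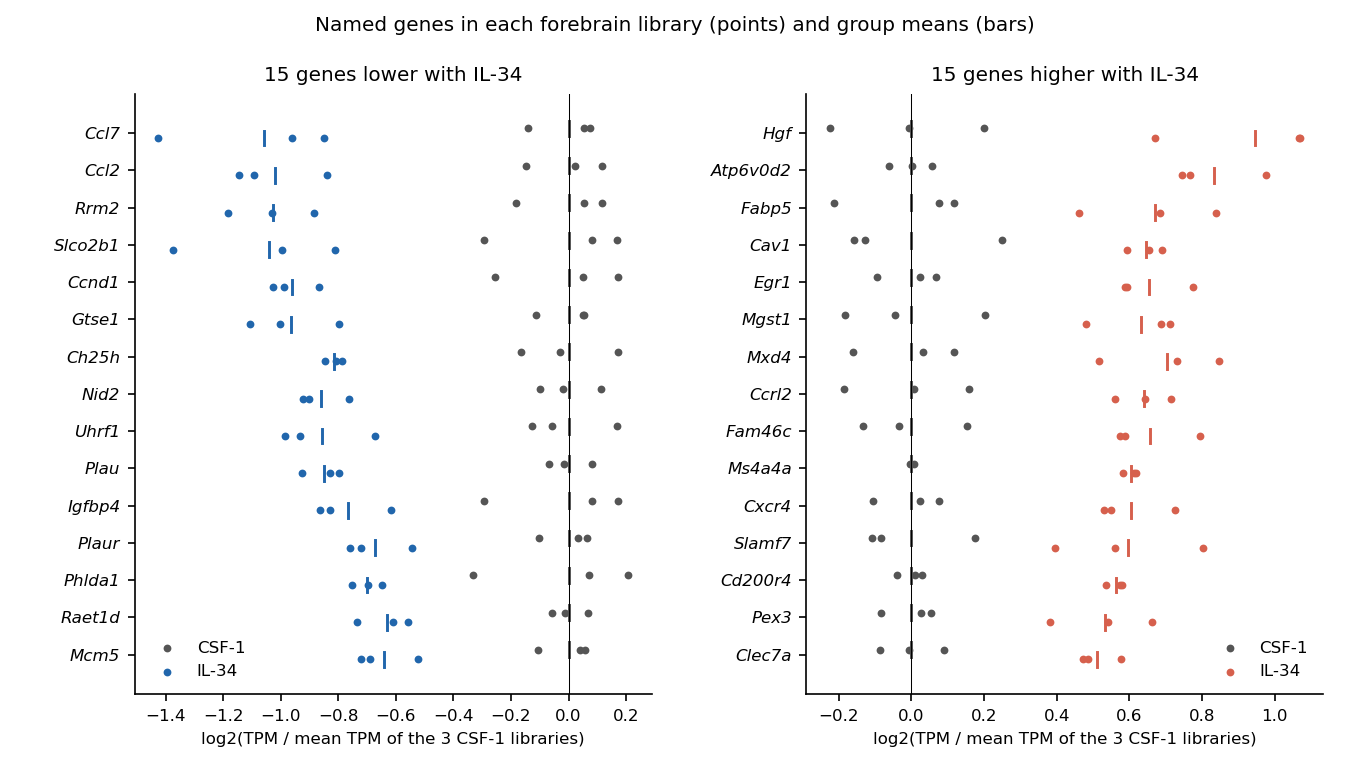
TPM in each forebrain library (points) and group means (bars) for the 15 genes with the lowest and the 15 with the highest log2 fold change among called genes with at least 5 TPM in the higher group, as log2 of the ratio to the mean of the 3 CSF-1 libraries. The CSF-1 points (grey) lie around 0, and the IL-34 points lie wholly to the left of them in the left panel and wholly to the right in the right panel. The choice of genes required this separation, which all 149 called genes showed.

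CSF1R and its partners did not differ past the threshold. Csf1r itself did not pass (values above), nor did Trem2, a lipid-sensing receptor gene, at 823, 783 and 793 TPM with CSF-1 and 784, 873 and 832 TPM with IL-34. The gene of CSF-1, Csf1, was at 11.3, 12.1 and 12.9 TPM with CSF-1 and 10.9, 13.8 and 14.1 TPM with IL-34, and Il34 reached at most 0.0576 TPM. The ranges of both ligands overlapped for these 4 genes. Sdc1, which encodes the proteoglycan syndecan-1, a reported binding partner of IL-34, was at 8.72, 9.596 and 10.3 TPM with CSF-1 and 12.7, 12.97 and 11.7 TPM with IL-34. Its groups did not overlap, as in 18.5% of all genes tested, and it did not pass (adjusted p = 0.189, for a log2 fold change of 0.35). The gene of a further receptor described for IL-34, Ptprz1, was at 0.509 to 1.01 TPM and below the level needed for testing.

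Among CSF1R ligands and receptors for haematopoietic growth factors, which include Csf1r, Csf1 and Sdc1, 2 of 11 genes tested rose and 0 fell (median log2 fold change 0.09, against -0.04 over all genes). Over all genes tested, 0.427% rose, 0.773% fell, 38.7% were above 0 and 61.1% below 0, shares that apply to every list below. Csf3r, the receptor gene for G-CSF, rose from 35.4, 32.2 and 31.4 TPM with CSF-1 to 45.03, 47.6 and 44.4 TPM with IL-34 (log2 fold change 0.46, SE 0.0605, adjusted p = 0.0076). Csf2rb, the shared signalling chain for GM-CSF, IL-3 and IL-5, rose from 49.8, 53.8 and 54.8 to 71.96, 69.9 and 60.7 TPM (log2 fold change 0.35, adjusted p = 0.036). The IL-34 libraries were all above the CSF-1 libraries for both, but Csf2rb passed in only 1 of 12 fits. With trends taken out, 6 of the 11 rose.

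Directly below the receptor, 1 of 24 genes of CSF1R-proximal signalling passed, and it fell. Dok2, an adaptor that recruits RasGAP and restrains signalling from tyrosine kinases (ENSMUSG00000022102, chr14:70766036-70778495, plus strand, GRCm38), had 202, 202 and 211 TPM with CSF-1 and 144, 132 and 133 TPM with IL-34. Its CSF-1 libraries lay close to each other and well clear of the IL-34 libraries. The log2 fold change was -0.58 (SE 0.0477, adjusted p = 0.000944), and no gene had a smaller p. The 23 others, which include the PI3K subunit gene Pik3cg (62.5, 68.7 and 67.1 against 61.2, 56.5 and 53.6 TPM) and the adaptor gene Sh2b3 (80.9, 93.1 and 88.8 against 82.1, 67.7 and 71.6 TPM), did not pass, and 18 of the 24 were below 0.

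Among genes that ERK signalling turns on, or that feed back on it, more fell than rose. Of 20 tested, 5 fell, 1 rose and 14 did not pass, 15 were below 0 (against 61.1% of all genes), and the median log2 fold change was -0.29. Plaur, the urokinase receptor gene (ENSMUSG00000046223, chr7:24462484-24475968, plus strand), was at 332, 324 and 295 TPM with CSF-1 and 192, 187 and 218 TPM with IL-34. The lowest CSF-1 library was well above the highest IL-34 library, and the log2 fold change was -0.67 (SE 0.0789, adjusted p = 0.00623). Myc, the growth-promoting transcription factor gene, fell from 74.8, 84.2 and 82.2 to 60.7, 55.5 and 56.2 TPM (log2 fold change -0.48, adjusted p = 0.00623), again without overlap. Dusp5, a phosphatase gene that switches ERK off in the nucleus, fell from 24.3, 24.2 and 25.5 to 18.9, 17.9 and 16.3 TPM (log2 fold change -0.46, adjusted p = 0.00927, 11 of 12 fits). Phlda1 fell from 13.1, 9.902 and 14.4 to 7.95, 7.39 and 7.68 TPM (adjusted p = 0.0335) and passed in 4 of 12 fits and not under quantile normalization. The count of 5 went to 2 without IL-34 replicate 2 and to 3 without IL-34 replicate 3 or CSF-1 replicate 3, and to 10 of 18 with trends taken out.

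The exception was Egr1, an immediate early transcription factor gene that ERK also turns on. It was at 29.3, 30.2 and 27.01 TPM with CSF-1 and 43.5, 49.3 and 43.3 TPM with IL-34, higher in 3 of 3 libraries (log2 fold change 0.64, SE 0.13, adjusted p = 0.04), but passed in only 3 of 12 fits. Among 19 immediate early genes, Egr1 rose, Klf2, a transcription factor gene that restrains inflammatory genes, fell from 82.2, 89.4 and 103 to 64.5, 62.1 and 58.4 TPM (log2 fold change -0.56, adjusted p = 0.00765), and 17 did not pass. Of the 19, 12 were below 0 (63.2%), near the 61.1% of all genes.

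The D cyclins pass a growth signal on to the cell cycle, and the genes of 2 of them fell. Ccnd1, the gene of cyclin D1 (ENSMUSG00000070348, chr7:144929931-144939925, minus strand), was at 37.8, 46.7 and 50.9 TPM with CSF-1 and 24.7, 22.7 and 22.2 TPM with IL-34. All IL-34 libraries lay close together and below the lowest CSF-1 library (log2 fold change -0.92, SE 0.14, adjusted p = 0.0122, 8 of 12 fits). Ccnd3, the gene of cyclin D3, fell from 58.03, 57.6 and 60.2 to 47.3, 40.1 and 42.4 TPM (log2 fold change -0.43, adjusted p = 0.0105). Ccnd2, named here to complete the family, did not pass (adjusted p = 0.293). Cdkn1a, which encodes the cyclin-dependent kinase inhibitor p21 and so acts against the cyclins, also fell, from 543, 498 and 553 to 404, 421 and 435 TPM (log2 fold change -0.34, adjusted p = 0.00927). Mxd4, which encodes an antagonist of MYC, rose from 5.96, 5.61 and 4.92 to 7.86, 9.89 and 9.12 TPM (log2 fold change 0.61, adjusted p = 0.04, 4 of 12 fits). In this list of 25 D cyclin, inhibitor and MYC network genes, which shares Myc and Ccnd1 with the ERK list, 4 fell, 1 rose and 21 were below 0 (median -0.18), and without IL-34 replicate 2 only 1 fell, without CSF-1 replicate 3 only 2.

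Genes of DNA replication and entry into S phase were mostly below 0, few of them past the threshold. Of 44 tested, 5 fell and 0 rose, 41 were below 0 (93.2%, against 61.1% of all genes), and the median log2 fold change was -0.34. Rrm2, the small subunit of ribonucleotide reductase, was at 17.3, 20.4 and 21.3 TPM with CSF-1 and 9.64, 8.67 and 10.7 TPM with IL-34 (log2 fold change -0.96, SE 0.17, adjusted p = 0.0253, 7 of 12 fits). Uhrf1, which carries DNA methylation over to new strands, fell from 11.4, 14.01 and 11.97 to 7.83, 6.296 and 6.52 TPM (log2 fold change -0.77, adjusted p = 0.00878). Mcm5, a subunit of the replicative helicase (ENSMUSG00000005410, chr8:75109569-75128439, plus strand), fell from 21.2, 23.8 and 23.5 to 15.9, 14.2 and 13.8 TPM (log2 fold change -0.61, SE 0.0907, adjusted p = 0.00927). The groups of these 3 genes did not overlap. Cdt1, which loads that helicase, fell from 40.5, 48.6 and 44.2 to 36.3, 34.5 and 33.9 TPM (adjusted p = 0.0412) but in 1 of 12 fits, and the fifth gene, Mcm4, named because the count is small, fell from 26.4, 29.1 and 31.01 to 22.3, 20.9 and 21.1 TPM (adjusted p = 0.0453, 2 of 12 fits). With trends taken out 20 of 43 fell, while the count of 5 was 0 without IL-34 replicate 2, 1 without CSF-1 replicate 2 and 2 or 3 without 7 other libraries.

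In mitosis and G2/M, 1 of 43 genes fell and 0 rose, 40 were below 0, and the median was -0.34. The gene that passed, Gtse1, acts on microtubules in dividing cells and fell from 7.28, 8.17 and 8.16 to 4.53, 3.92 and 3.65 TPM (log2 fold change -0.82, adjusted p = 0.00927). Ccnb1, the gene of cyclin B1, was at 12.03, 12.98 and 11.04 TPM with CSF-1 and 5.66, 7.696 and 7.33 TPM with IL-34. Its groups did not overlap, as in 18.5% of all genes tested, and it did not pass (log2 fold change -0.73, adjusted p = 0.104). Without IL-34 replicate 2 no mitosis gene passed, and with trends taken out 5 of 40 fell.

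Replication genes are known targets of E2F, the transcription factor that the D cyclins release, and their promoters were searched for 2 common E2F sites, TTTCCCGC and TTTGGCGC, on both strands. In RefSeq windows of GRCm38.p6 from 250 bases before to 50 bases after each annotated start, 13 of the 34 replication genes with a window held a match (38.2%), against 3.59% of 8996 tested genes and 1.56% of all 32851 windows. Of the genes called lower, 3 of 70 with a window held one (4.29%), namely Cdt1, Mcm5 and Ppp1r18 (7 of 12 fits), and of those called higher 2 of 37 (5.41%). A match is a string of letters, not a measured site. The Mcm5 match, in capitals, ends 141 bases before the start site and is printed with the bases around it, which overlap no annotated exon (chr8:75109300-75109427, plus strand).
Mcm5 promoter: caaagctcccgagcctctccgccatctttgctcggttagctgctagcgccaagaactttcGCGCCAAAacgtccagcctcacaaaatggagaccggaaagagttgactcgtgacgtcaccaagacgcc

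The chemokine genes Ccl7 and Ccl2 had the lowest log2 fold changes of all called genes. Ccl2, which encodes the main attractant of monocytes (ENSMUSG00000035385, chr11:82035571-82037453, plus strand), was at 80.4, 85.8 and 71.4 TPM with CSF-1 and 35.8, 37.1 and 44.2 TPM with IL-34. The highest IL-34 library was at well under the lowest CSF-1 library (log2 fold change -1.004, SE 0.11, adjusted p = 0.00369). Its neighbour on chromosome 11, Ccl7, which acts on the same receptor (chr11:82045712-82047525, plus strand), fell from 38.8, 39.4 and 33.9 to 13.9, 20.7 and 19.2 TPM (log2 fold change -1.03, SE 0.17, adjusted p = 0.0162), but not without CSF-1 replicate 1 or 2. Both transcripts are short, 968 and 801 nt on average, so Ccl7 was not measured in the fit on transcripts of 1000 nt or more, and Ccl2 had an adjusted p of 0.0706 there. Cxcl16, a membrane-bound chemokine gene, rose from 403, 398 and 433 to 474, 460.2 and 494 TPM (log2 fold change 0.21, adjusted p = 0.0432, 1 of 12 fits). In all, 2 of 19 chemokine genes fell and 1 rose (median -0.14).

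The receptors for such attractants moved both ways, 3 of 16 rising and 1 falling (median 0.05). Over all genes 0.427% rose and 0.773% fell. Cxcr4, the receptor gene for CXCL12 (chr1:128588199-128592293, minus strand), rose from 20.4, 23.2 and 22.4 to 31.8, 32.2 and 36.4 TPM (log2 fold change 0.58, SE 0.0817, adjusted p = 0.00878). Ccrl2, which presents chemerin without signalling, rose from 10.2, 11.4 and 8.96 to 15.9, 15.02 and 16.7 TPM (log2 fold change 0.60, adjusted p = 0.0141, 9 of 12 fits), and S1pr1, a sphingosine phosphate receptor gene, from 98.1, 107 and 99.2 to 135, 123 and 119.7 TPM (log2 fold change 0.31, adjusted p = 0.035, 3 of 12 fits). C5ar1, the receptor gene for the complement fragment C5a and 1 of the abundant genes, fell from 1323, 1339 and 1362 to 1094, 1002 and 1092 TPM (log2 fold change -0.34, adjusted p = 0.00927). No library of one ligand lay within the range of the other for these 4 genes. Without CSF-1 replicate 3, IL-34 replicate 2 or IL-34 replicate 3, only 1 of the 16 rose.

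The urokinase system, in which cells activate plasmin at their surface, fell as receptor and ligand together. Beside Plaur, given above, Plau, the gene of urokinase (chr14:20836660-20843385, plus strand), fell from 12.7, 14.1 and 13.2 to 7.68, 7.03 and 7.52 TPM (log2 fold change -0.77, SE 0.11, adjusted p = 0.00927, 11 of 12 fits). Nid2, a basement membrane gene, fell from 13.5, 14.8 and 12.8 to 8.05, 7.31 and 7.199 TPM (log2 fold change -0.78, adjusted p = 0.00623), and Adam8, a membrane protease gene, from 2064, 2242 and 2287 to 1891, 1687 and 1658 TPM (log2 fold change -0.33, adjusted p = 0.027, 8 of 12 fits). None of these groups overlapped. Of the 22 plasminogen and matrix protease genes tested, these 4 fell and 0 rose (median -0.01), and without IL-34 replicate 2 only 2 fell.

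The promoter window of Plaur holds a match to the AP-1 site TGANTCA, through which ERK-driven FOS and JUN proteins act, searched on both strands. The match, in capitals, ends 62 bases before the start site, and the stretch around it overlaps no annotated exon (chr7:24462354-24462480, plus strand). Matches were present in 6.15% of 8996 tested genes, 8 of 70 genes called lower (11.4%) and 4 of 37 called higher (10.8%).
Plaur promoter: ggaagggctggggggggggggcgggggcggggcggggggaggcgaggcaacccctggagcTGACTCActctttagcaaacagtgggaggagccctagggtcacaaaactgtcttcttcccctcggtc

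Ch25h, the gene of cholesterol 25-hydroxylase, was the member of the sterol lists that fell. The enzyme makes 25-hydroxycholesterol, which shuts down sterol synthesis and activates LXR. Ch25h (ENSMUSG00000050370, chr19:34473778-34475164, minus strand) was at 208, 229 and 263 TPM with CSF-1 and 135, 129.9 and 133 TPM with IL-34 (log2 fold change -0.80, SE 0.0909, adjusted p = 0.0052). The IL-34 libraries were nearly equal and the CSF-1 libraries all higher and more spread. Ch25h was the only one of the 14 oxysterol and LXR genes tested that passed. Of the 14, 10 were above 0 (71.4%, against 38.7% of all genes, median 0.08). Among them was Abca1, the cholesterol exporter gene, at 41.8, 49.5 and 46.8 TPM with CSF-1 and 70.99, 66.6 and 50.8 TPM with IL-34 (adjusted p = 0.114).

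Cholesterol synthesis genes were mostly on the other side, without passing. In limma 0 of 25 passed and 11 had an unadjusted p under 0.05. Of the 25, 20 were above 0 (80%, against 38.7% of all genes) and the median was 0.14. Hmgcs1, which makes HMG-CoA, was at 69.4, 74.3 and 71.4 TPM with CSF-1 and 95.9, 87.3 and 81.004 TPM with IL-34 (a log2 change of 0.29, adjusted p = 0.0649), and Fdft1, squalene synthase, at 39.6, 36.7 and 38.5 and 51.5, 47.4 and 43.6 TPM (adjusted p = 0.0624). These IL-34 libraries were all above the CSF-1 libraries, as in 5.90% of all genes tested. With the median-of-ratios scaling 5 of the 25 rose, and with trends taken out 9 did.

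Of 25 genes for fatty acid binding, uptake and lipid droplets, 1 rose and 0 fell (median 0.08). Fabp5, a cytosolic fatty acid carrier (chr3:10012548-10016607, plus strand), rose from 471, 484 and 385 to 616, 799 and 719 TPM (log2 fold change 0.67, SE 0.12, adjusted p = 0.0287, 7 of 12 fits). Its relative Fabp4 was at 19.2, 18.1 and 17.2 TPM with CSF-1 and 24.8, 41.2 and 36.8 TPM with IL-34, just above the threshold (adjusted p = 0.050022). Plin2, the coat of lipid droplets, did not pass at 2647, 2624 and 2496 against 2468, 2313 and 2336 TPM. With trends taken out 6 of 21 rose.

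The lysosomal protease genes that passed were higher with IL-34, by small amounts and at high levels. Ctss, the gene of cathepsin S, a protease of antigen-presenting cells (chr3:95526786-95556403, plus strand), was at 2791, 2818 and 2910.5 TPM with CSF-1 and 3451, 3528 and 3519 TPM with IL-34 (log2 fold change 0.30, SE 0.0375, adjusted p = 0.00623). Ctsl, the gene of cathepsin L, rose from 1252, 1302 and 1368 to 1782, 1853 and 1627 TPM (log2 fold change 0.42, adjusted p = 0.00927), and Ctsh, of cathepsin H, from 216, 228 and 229 to 279.6, 271 and 262 TPM (log2 fold change 0.27, adjusted p = 0.0368, 3 of 12 fits). Within each gene the IL-34 libraries were all above the CSF-1 libraries. Of 41 cathepsins and hydrolases, these 3 rose (against 0.427% of all genes) and 0 fell. In all, 32 were above 0 (78.0%, against 38.7% of all genes) and the median was 0.07. The count of 3 went to 7 with the median-of-ratios scaling, 18 of 39 with trends taken out and 1 without IL-34 replicate 2.

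Atp6v0d2, a subunit of the vacuolar proton pump that macrophages and osteoclasts switch on (ENSMUSG00000028238, chr4:19876841-19922605, minus strand), was at 18.4, 17.6 and 19.1 TPM with CSF-1 and 30.8, 36.1 and 31.3 TPM with IL-34 (log2 fold change 0.80, SE 0.11, adjusted p = 0.00787). No other of 32 genes for lysosomal membrane proteins, the pump and the TFE transcription factors passed. Of the 32, 27 were above 0 (84.4%, against 38.7% of all genes) and the median was 0.06. Lamp2, a structural protein of the membrane, stood at 708, 719 and 739 TPM with CSF-1 and 834, 792 and 802 TPM with IL-34 (adjusted p = 0.201). With the median-of-ratios scaling 4 of the 32 rose and with trends taken out 7 of 31.

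Genes known to rise in disease-associated microglia, the state described around amyloid plaques, moved both ways. Of 36 tested, 5 rose, 1 fell and 26 were above 0 (72.2%, against 38.7% of all genes, median 0.07). Gpnmb, a glycoprotein of lysosomes and melanosomes (ENSMUSG00000029816, chr6:49036546-49070929, plus strand), was at 2432, 2522 and 2453 TPM with CSF-1 and 3461, 3359 and 3158 TPM with IL-34 (log2 fold change 0.43, SE 0.0521, adjusted p = 0.00623). Clec7a, the receptor gene for fungal glucans, rose from 113, 99.6 and 105 to 147, 158 and 148 TPM (log2 fold change 0.51, adjusted p = 0.0379, 4 of 12 fits). Atp6v0d2, Ctsl and Fabp5 were the other 3 that rose, and Ch25h, also of this list, fell. Apoe was at 32246, 30179 and 36616 TPM with CSF-1 and 39007, 38638 and 36891 TPM with IL-34. Its groups did not overlap, as in 18.5% of all genes tested, and it did not pass (adjusted p = 0.195). Without IL-34 replicate 2 only 2 of the 36 rose, without any 1 of the CSF-1 replicates or IL-34 replicate 3 only 3, and with trends taken out 12 of 29 rose and 2 fell.

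**Figure D3:**
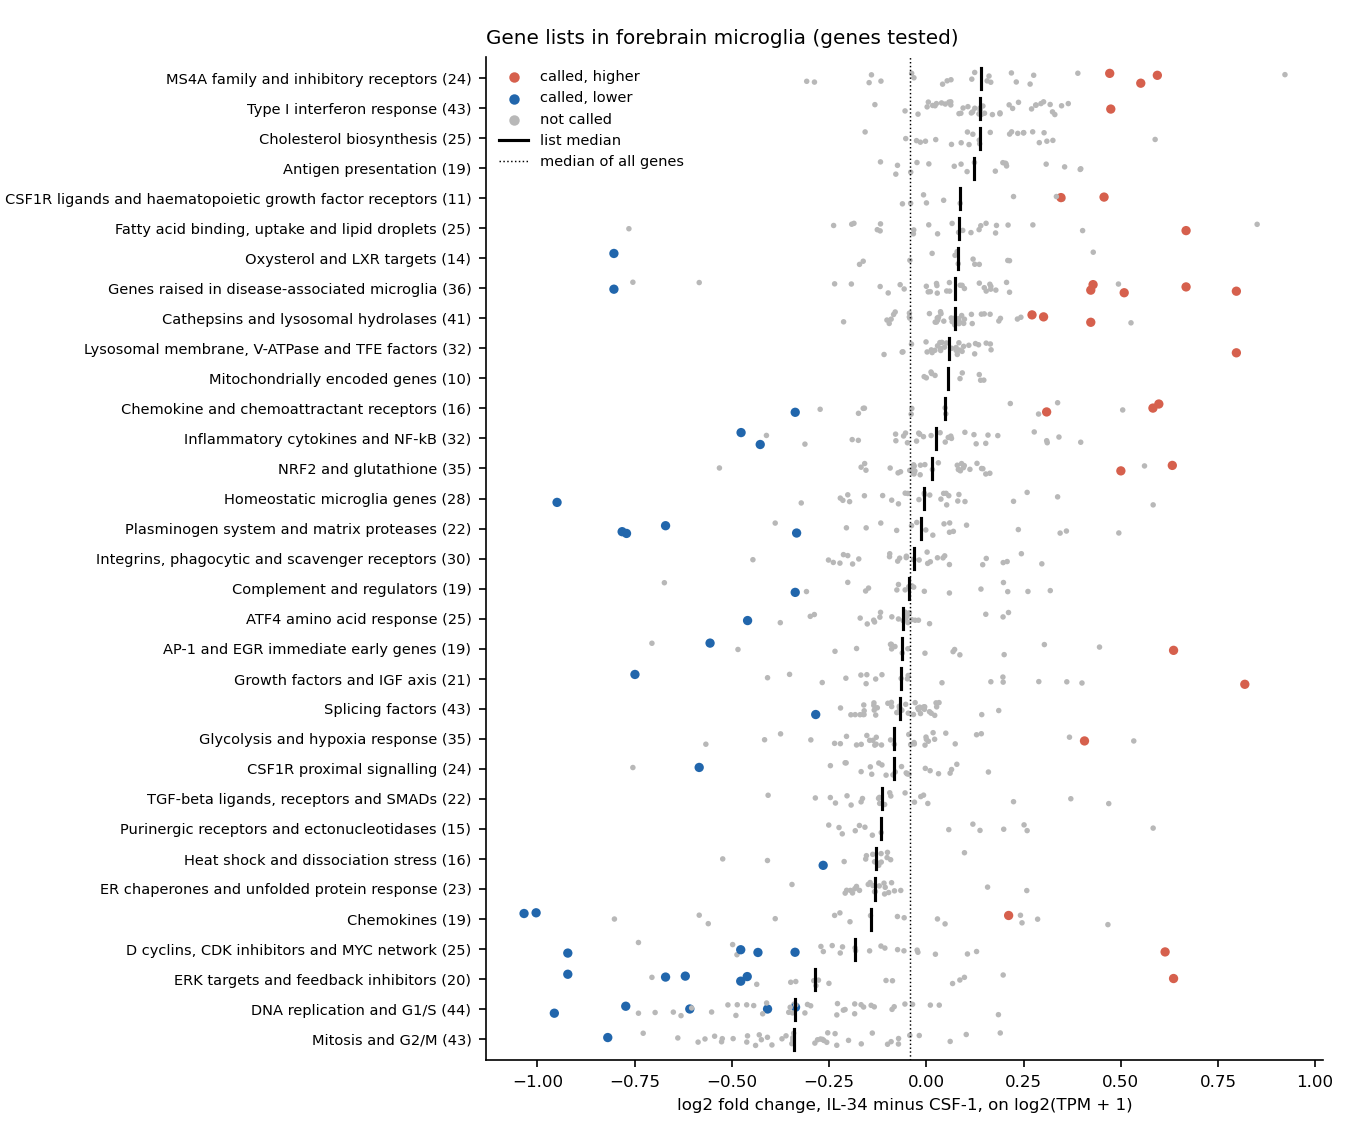
Log2 fold change, IL-34 minus CSF-1, of each tested member of 33 gene lists (points, with called genes in red or blue), with each list's median as a black bar and the median of all genes, -0.04, as a dotted line. Mitosis, DNA replication and ERK target lists have the lowest medians (-0.34, -0.34 and -0.29), and the lists of MS4A genes and inhibitory receptors, interferon response and cholesterol synthesis the highest (0.14 each).

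A list of MS4A family genes and of inhibitory receptors with their relatives had 3 of 24 genes higher and 0 lower (median 0.14). Over all genes 0.427% were called higher. Cd200r4, an activating relative of the receptor for the neuronal signal CD200, without an inhibitory motif, was at 35.01, 36.8 and 36.2 TPM with CSF-1 and 53.8, 52.2 and 53.6 TPM with IL-34 (log2 fold change 0.55, SE 0.0626, adjusted p = 0.0052). Ms4a4a, of a gene cluster linked to TREM2 in human genetics, rose from 44.7, 44.95 and 44.7 to 68.5, 67.03 and 68.8 TPM (log2 fold change 0.59, adjusted p = 0.00878). Clec4a3, a C-type lectin gene, rose from 103, 90.02 and 106 to 136, 139.6 and 139.7 TPM (log2 fold change 0.47, adjusted p = 0.00872). The libraries of each ligand were tightly grouped in Cd200r4 and Ms4a4a, far from those of the other. Ms4a4c, at 5.15, 6.66 and 8.64 and 10.1, 14.3 and 17.2 TPM, did not pass (adjusted p = 0.0624).

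Interferon response genes lay above 0 almost throughout, 40 of 43 with a median of 0.14, but 1 rose and 0 fell. Ifit2, which blocks translation of viral RNA, rose from 138, 141 and 161 to 203, 201 and 208 TPM (log2 fold change 0.47, adjusted p = 0.0423) and passed in 3 of 12 fits. Its neighbours Ifit3 (427, 438 and 475 against 533, 535 and 561 TPM, adjusted p = 0.0807) and Ifit1 (132, 130.3 and 152 against 168, 168 and 182 TPM, adjusted p = 0.0897) had groups that did not overlap and did not pass. Such a separation was seen in 18.5% of all genes tested. With the median-of-ratios scaling 4 of the 43 rose and with trends taken out 16 of 40. The core of the interferon-stimulated response element is a pair of GAAA runs with any 2 bases between them. It was searched on both strands of the same promoter windows. Of the 31 of these genes with a window, 18 held a match (58.1%), against 3.97% of all tested genes. Ifit2, the 1 that rose, has a window but was not among the 18. Matches were present in 5 of 37 genes called higher (13.5%) and 2 of 70 called lower (2.86%).
In antigen presentation 0 of 19 genes passed in limma and 5 had an unadjusted p under 0.05. Of the 19, 14 were above 0 (73.7%, against 38.7% of all genes, median 0.12), and 7 of 18 rose with trends taken out. H2-D1, a class I heavy chain gene, was at 3963, 4014 and 4264 TPM with CSF-1 and 4764, 4485 and 4591 TPM with IL-34 (adjusted p = 0.0898).

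Secreted growth factors and the IGF axis had 1 of 21 genes higher and 1 lower (median -0.06). Hgf, hepatocyte growth factor (ENSMUSG00000028864, chr5:16553495-16620152, plus strand), was low in level but rose from 4.75, 4.09 and 5.49 TPM with CSF-1 to 10.02, 10.01 and 7.602 TPM with IL-34 (log2 fold change 0.82, SE 0.14, adjusted p = 0.0225, 8 of 12 fits). Igfbp4, a binding protein that holds IGF-1 from its receptor, fell from 119, 155 and 165 to 95.7, 82.6 and 80.6 TPM (log2 fold change -0.75, SE 0.13, adjusted p = 0.0191, 8 of 12 fits). The groups overlapped in neither.

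Inflammatory cytokine and NF-kB genes were divided around 0, with 2 of 32 lower, 0 higher and a median of 0.02. Nlrp3, the inflammasome sensor gene, fell from 27.02, 28.1 and 31.9 to 21.6, 20.04 and 19.96 TPM (log2 fold change -0.48, adjusted p = 0.0201, 8 of 12 fits). Ptgs2, the gene of cyclooxygenase 2, fell from 16.9, 14.6 and 15.5 to 11.6, 10.9 and 11.7 TPM (log2 fold change -0.43, adjusted p = 0.0278, 6 of 12 fits). Pla2g4a, which frees the arachidonic acid that this enzyme uses, and Alox5ap, which hands it to 5-lipoxygenase, were lower too, at 88.1, 85.97 and 92.999 against 67.96, 60.98 and 67.8 TPM and 133, 133 and 131 against 92.98, 97.5 and 101 TPM (adjusted p = 0.0138 and 0.01). These were chosen after their values were seen, as was Pla2g7, which breaks down platelet-activating factor and rose from 374, 375 and 384 to 528, 512 and 526 TPM (log2 fold change 0.47, SE 0.046, adjusted p = 0.00258).

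Homeostatic microglia genes lay on both sides of 0, with 1 of 28 lower, 0 higher and a median of 0.00. Slco2b1, an organic anion transporter gene, fell from 11.8, 15.3 and 16.3 to 7.26, 8.24 and 5.58 TPM (log2 fold change -0.95, SE 0.13, adjusted p = 0.00878). Entpd1, the ATP-degrading CD39, was at 12.7, 14.04 and 10.5 TPM with CSF-1 and 18.2, 20.3 and 18.7 TPM with IL-34. All its IL-34 libraries were higher, as in 5.90% of all genes tested, and it did not pass (adjusted p = 0.0555). Of the TGF-beta pathway, which maintains this identity, 0 of 22 genes passed in limma (5 at an unadjusted p under 0.05, 18 below 0, median -0.11). For integrins and scavenger receptors the counts were 0 of 30 (10 unadjusted, median -0.03), for purinergic genes 0 of 15 (3 unadjusted, median -0.12) and for ER chaperones 0 of 23 (9 unadjusted, median -0.13). Hspa8, a constitutive chaperone gene, was the 1 of 16 heat shock genes to pass, falling from 1703, 1739 and 1780.0 to 1537, 1347 and 1465 TPM (adjusted p = 0.042, 3 of 12 fits). Each of 4 further lists had 1 gene past the threshold. Ldhb, a lactate dehydrogenase subunit gene, rose among 35 genes of glycolysis and the hypoxia response (log2 fold change 0.41, adjusted p = 0.04, 3 of 12 fits, list median -0.08). Slc7a5, an amino acid transporter gene, fell among 25 genes of the ATF4 response (-0.46, adjusted p = 0.0379, 4 of 12 fits, list median -0.06), and Hnrnpa1 fell among 43 splicing factor genes (-0.28, adjusted p = 0.0352, 3 of 12 fits and under neither other scaling, list median -0.07). C5ar1, given above, was the 1 of 19 complement genes (list median -0.05). Of 10 mitochondrially encoded genes limma called 0 (3 unadjusted, median 0.05). Gstm1 and Mgst1, glutathione transferase genes, rose from 80.95, 82.6 and 72.8 to 110.5, 118 and 107 TPM and from 166, 139 and 127 to 201, 236 and 232 TPM (adjusted p = 0.0182 and 0.0201, in 10 and 8 of 12 fits), the 2 of 35 NRF2 and glutathione genes that did.

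Other genes among the highest and lowest fold changes had scattered functions. Cav1, the coat protein gene of caveolae, rose from 31.6, 30.8 and 40.97 to 55.5, 54.2 and 52.03 TPM (log2 fold change 0.64, adjusted p = 0.0278, 7 of 12 fits), and Slamf7, a receptor gene of phagocytes, from 18.6, 15.6 and 15.3 to 24.3, 28.8 and 21.7 TPM (log2 fold change 0.56, adjusted p = 0.04, 3 of 12 fits). Fam46c, which encodes a poly(A) polymerase, rose from 7.26, 8.86 and 7.78 to 13.8, 11.9 and 11.98 TPM (log2 fold change 0.60, adjusted p = 0.00951). Raet1d, which encodes a ligand of the killer cell receptor NKG2D, fell from 34.03, 37.1 and 35.1 to 21.2, 23.2 and 24.1 TPM (log2 fold change -0.61, adjusted p = 0.00927). The groups overlapped in none of them.

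Of the genes named after their values were seen, Tubb6, a tubulin gene, had 246, 251 and 256 TPM with CSF-1 and 187, 179.6 and 180.0 TPM with IL-34 (log2 fold change -0.46, SE 0.0396, adjusted p = 0.000944). Cd274, the gene of the T cell inhibitor PD-L1, rose from 30.9, 29.1 and 30.3 to 40.2, 39.7 and 41.6 TPM (adjusted p = 0.00878), and Cybb, the catalytic subunit of the phagocyte oxidase, from 358, 349 and 399 to 531, 474 and 490.5 TPM (adjusted p = 0.00927). Tnfrsf1b, a receptor gene for TNF, rose from 259, 287 and 301 to 425, 408 and 373 TPM (adjusted p = 0.0076). All 4 had library values that did not overlap between the ligands. Among called genes the change of the largest size was in C330013E15Rik, a transcribed locus of unstated function, at 0.925, 0.669 and 0.672 TPM with CSF-1 and 2.35, 2.74 and 2.897 TPM with IL-34, and its level is low (4 of 12 fits).

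The forebrain ligand difference was also set beside the cerebellar one. Of the 149 genes, 148 had the same sign in cerebellum, against 63.05% of all genes, and 118 also passed there, where 1593 genes did (12.8%). The libraries are separate in the 2 regions, so these counts share no samples, although they share 1 estimate of the spread. Fabp5, for example, had log2 fold changes of 0.67 in forebrain and 0.79 in cerebellum, Ccnd1 -0.92 and -1.21, and Ch25h -0.80 and -1.01. These examples changed more in cerebellum, but 96 of the 149 had the larger size of change in forebrain, where they were called. The difference between regions was tested as an interaction, and 0 of the 149 passed it in limma, with 20 at an unadjusted p under 0.05. Closest to the threshold was Pex3, a peroxisome assembly gene (0.51 in forebrain and 0.01 in cerebellum, interaction adjusted p = 0.151), followed by Gcnt1 (-0.37 and -0.79, 0.193), C330013E15Rik (1.06 and -0.18, 0.197), Cd200r4 (0.55 and 0.21, 0.228) and Prmt1 (-0.32 and 0.00, 0.272). Of these, Gcnt1 had passed between the ligands in 6 of 12 fits and Prmt1 in 1, and Prmt1 under neither other scaling. A p that misses the threshold does not show that the regions respond alike.

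**Figure D4:**
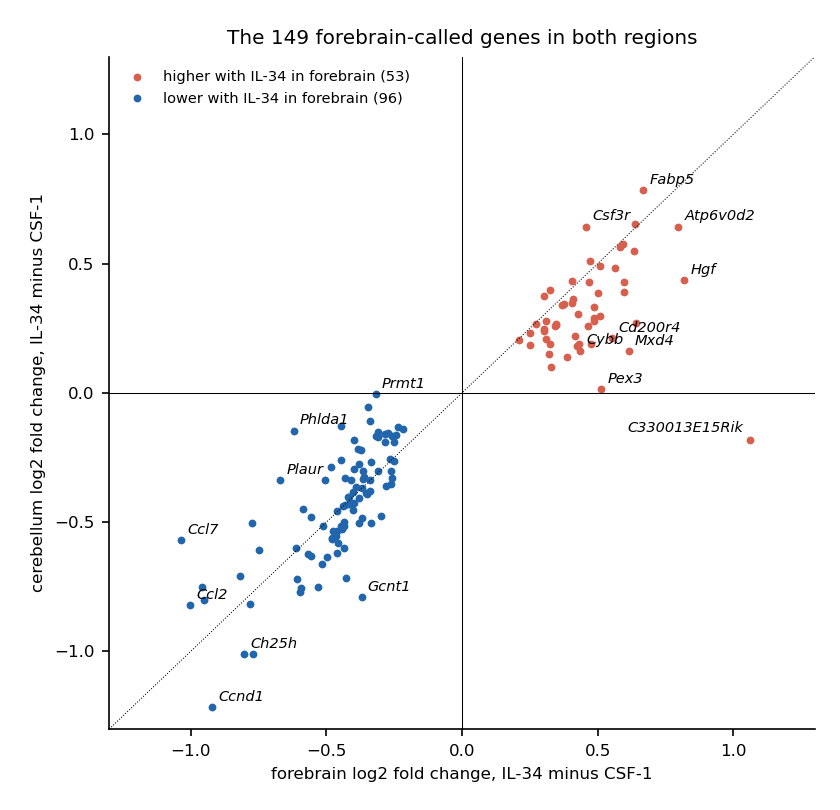
Log2 fold change, IL-34 minus CSF-1, in forebrain (horizontal axis) and cerebellum (vertical axis) for the 149 genes called in forebrain, red where higher and blue where lower with IL-34; the dotted line marks equal changes. All but C330013E15Rik have the same sign in both regions, and Pex3 lies near 0 in cerebellum.

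The table lists transcripts, so each gene's difference was followed to its isoforms. Of 32755 transcripts tested, 12 passed (0.0366%), 4 higher and 8 lower, and 2321 had an unadjusted p under 0.05. A single transcript was measured less precisely than a gene, with a median SE of 0.29 against 0.12 on the log2 scale. In 147 of the 149 genes the most abundant transcript moved in the direction of the gene, the exceptions being Gcnt1 and Pex3, and in 84 it made up over 80% of the gene's TPM. A second or further transcript held at least 5% in 83 genes, and in 66 of these all such transcripts moved the same way. Gpnmb shows this plainly: Gpnmb-201 was at 1431, 1439 and 1415 TPM with CSF-1 and 2008, 2033 and 1943 TPM with IL-34 (a log2 change of 0.48, adjusted p = 0.0169). Gpnmb-203, which ends in another last exon, was at 928, 1006 and 999 and 1383, 1238 and 1161 TPM, above in all 3 IL-34 libraries but short of the threshold (log2 fold change 0.36, adjusted p = 0.186). The other called transcripts of called genes were Tubb6-201, Dok2-201, Plaur-201, Slc39a14-202, Ch25h-201, Anxa2-201 and Dab2-203, lower, and Tnfrsf1b-201 and Pex3-204, higher. As a gene, Anxa2 passed in 3 of 12 fits.

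In 2 called transcripts the gene as a whole did not pass. Cog6-204, of a Golgi tethering complex gene, was at 0, 0.0404 and 0.00233 TPM with CSF-1 and at 3.74, 2.24 and 1.83 TPM with IL-34 (a log2 change of 1.80, adjusted p = 0.0364), while the gene had a log2 fold change of 0.03 (adjusted p = 0.949). It has a last exon of its own, 234 nt at chr3:52984727-52984960. In cerebellum the direction was the opposite, with means of 1.61 TPM under CSF-1 and 1.92e-05 TPM under IL-34. Evi2-201, which the deposited table files under the gene symbol Gm21975, was at 34.1, 29.7 and 33.3 TPM with CSF-1 and 16.1, 15.9 and 15.04 TPM with IL-34 (a log2 change of -0.9998, adjusted p = 0.0364). Evi2-202 was at 24.4, 20.8 and 28.1 TPM with CSF-1 and 39.4, 37.1 and 39.7 TPM with IL-34. Its sequence holds the whole of Evi2-201 plus 30 non-coding bases. Neither has a single 31-base word found in no other transcript of GENCODE M21. Whether words over those 30 bases tell the 2 transcripts apart was not tested.

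Transcripts were then compared within their gene, as the log2 ratio of a transcript to the rest of the gene. Of 20051 transcripts of 6440 genes, limma called 0 (0% of those tested; smallest adjusted p = 0.868), with 752 at an unadjusted p under 0.05 (3.75%). The diffSplice function of limma, which compares exons or transcripts within a gene, called 27 of 19831 (0.136%) in 23 genes, with 1119 at an unadjusted p under 0.05. The ratio was taken after adding 1 TPM to both parts. Its 95% interval on the log2 scale lay within 1 either way for 36.03% of transcripts and within 2 for 75.1%. A change of isoform by less than that was often not detectable. For low transcripts the added 1 TPM shrinks the ratio, so larger changes of isoform could also be missed. Of the 12 transcripts with the smallest p, some are described by their shares per library, and the others are named without values.

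**Figure D5:**
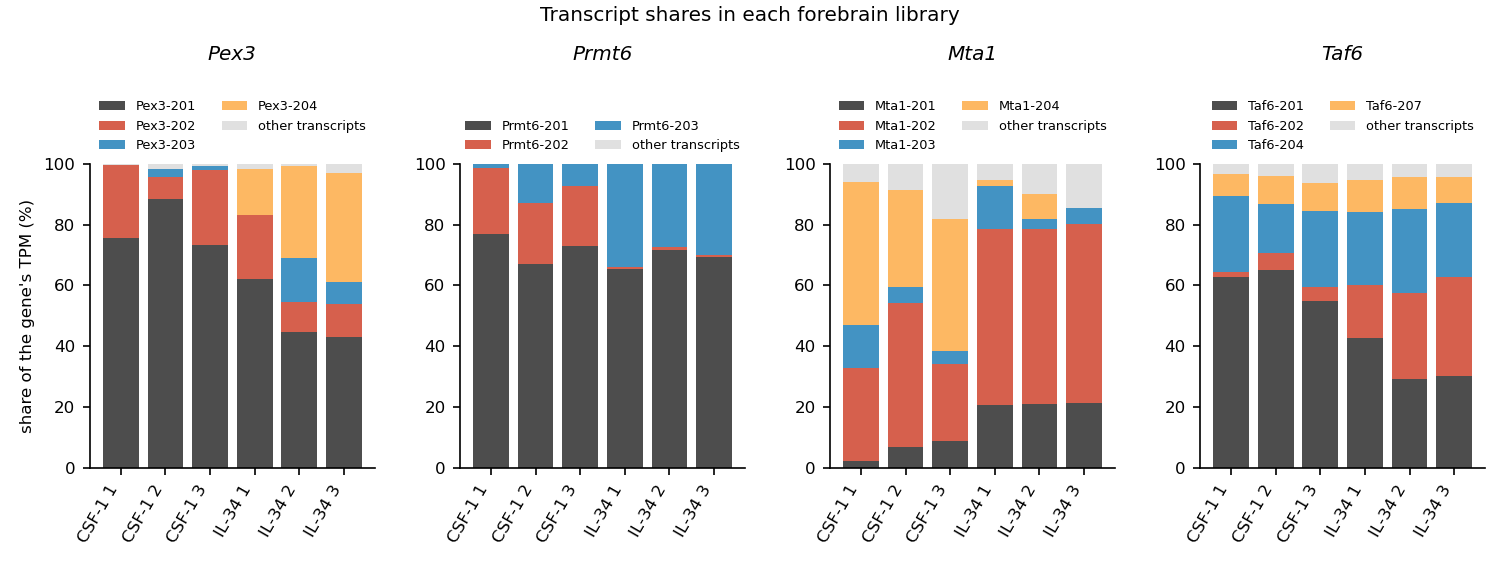
Share of each gene's TPM (percent) held by each transcript in the 3 CSF-1 and 3 IL-34 forebrain libraries, for Pex3, Prmt6, Mta1 and Taf6; transcripts below the display limit are summed in light grey. Pex3-204, Prmt6-203 and Mta1-202 take larger shares in every IL-34 library, and Pex3-204 is at 0 in every CSF-1 library.

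In Pex3 the difference rested on 1 transcript. The gene, which inserts peroxisomal membrane proteins (ENSMUSG00000019809, chr10:13523842-13553142, minus strand), rose from 25.2, 27.2 and 27.7 to 34.8, 42.3 and 38.9 TPM (log2 fold change 0.51, SE 0.0755, adjusted p = 0.00927). Pex3-204 was listed at 0 in all 3 CSF-1 libraries and at 5.29, 12.8 and 13.9 TPM with IL-34, and the other transcripts together were at 25.2, 27.2 and 27.7 TPM with CSF-1 and 29.5, 29.5 and 24.96 TPM with IL-34, which overlap. Pex3-204 is 771 nt long and is annotated as a processed transcript without a coding frame. It made up 8.41 to 28.4% of the gene in every cerebellar library, under either ligand. With transcripts under 1000 nt left out and trends removed, Pex3 did not pass (adjusted p = 0.721). What sets Pex3-204 apart is the join that skips the 125-nt exon chr10:13535943-13536067 of Pex3-201, and its 30 unique 31-base words all cross that join. The last 30 bases before the join are in lower case and the first 30 after it in capitals.
Pex3-204: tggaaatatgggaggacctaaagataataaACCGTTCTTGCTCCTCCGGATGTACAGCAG
Pex3-201: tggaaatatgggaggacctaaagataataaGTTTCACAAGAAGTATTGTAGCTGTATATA

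In Prmt6 and Mta1 the isoforms that changed places hardly differ in sequence. Prmt6-202, annotated as a target of nonsense-mediated decay and made by an arginine methyltransferase gene, held 21.7, 20.04 and 19.7% of the gene's TPM with CSF-1 and 0.761, 0.7802 and 0.636% with IL-34, and Prmt6-203 held 1.37, 12.8 and 7.15% and 33.98, 27.5 and 30.1%. The groups lay far apart, yet Prmt6-202 contains the whole of Prmt6-203 and exceeds it by 3 and 5 non-coding bases at its ends, which give it 3 unique words. In cerebellum the order was turned: Prmt6-202 held 1.05, 5.52 and 0.630% with CSF-1 and 34.0, 35.2 and 16.7% with IL-34.
Mta1-204, of a chromatin remodelling subunit gene, held 47.3, 31.9 and 43.4% with CSF-1 and 2.23, 8.23 and 0.0509% with IL-34, and Mta1-202 30.7, 47.6 and 25.2% and 57.9, 57.5 and 58.7%. Mta1-204 contains the whole of Mta1-202 and is longer by 45 and 33 non-coding end bases. The annotation also places 1 splice join 5 bases apart, at chr12:113123235-113123239 in Mta1-202 and at chr12:113126775-113126779 in Mta1-204, but those 5 bases, in capitals, read the same, so the joined RNA does too and neither transcript has a unique word.
Mta1-204: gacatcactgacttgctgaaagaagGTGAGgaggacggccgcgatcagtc
Mta1-202: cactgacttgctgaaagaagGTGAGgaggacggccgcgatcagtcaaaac

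In Sass6 and Taf6 the isoforms differ by whole exons. Sass6-205, of a centriole assembly gene, held 28.9, 36.2 and 18.4% of the gene's TPM with CSF-1 and 2.72, 5.35 and 0.3798% with IL-34. Sass6-204 held under 0.001% in each CSF-1 library and 14.1, 11.7 and 16.9% with IL-34, and it skips the 61-nt exon chr3:116603462-116603522 that Sass6-205 keeps. The join gives Sass6-204 25 unique words, while Sass6-205 has 0. Bases after the join are again in capitals.
Sass6-204: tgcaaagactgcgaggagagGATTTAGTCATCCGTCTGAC
Sass6-205: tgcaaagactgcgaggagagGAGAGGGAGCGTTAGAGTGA
Taf6-201, of a TFIID subunit gene, held 62.9, 64.99 and 54.9% with CSF-1 and 42.6, 29.4 and 30.4% with IL-34, and Taf6-202 held 1.52, 5.69 and 4.503% and 17.5, 28.2 and 32.5%. They differ only in a non-coding first exon of 57 nt (chr5:138187170-138187226) or 61 nt (chr5:138187391-138187451). In cerebellum Taf6-201 held 51.4 to 74.7% in all 6 libraries. At the gene level Prmt6, Mta1, Sass6 and Taf6 did not pass (log2 fold changes -0.11, -0.11, 0.09 and -0.01).

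Most of the transcripts with the smallest p had little sequence of their own. Of the 12, 5 had no unique 31-base word, 9 had fewer than 31 and the median was 15, while over 19814 share-tested transcripts found in GENCODE M21 16.9% had none, 39.1% had fewer than 31 and the median was 77. The others were Timeless-207, Tmem191c-201, Ppp2r2d-207, Chd1-203, Rrm2b-206, Stmn1-202 and Phrf1-204. Ppp2r2d-207, of a phosphatase regulatory subunit gene, for instance held 39.4, 38.9 and 47.1% with CSF-1 and 16.8, 26.1 and 20.04% with IL-34 and has 0 unique words. The part of read assignment in these differences was not tested, since reads are not in the deposited table.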

How the data were processed

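RNA of 12 libraries was made into sequencing libraries with the SMART-Seq v4 kit, per the labels' protocols, and the submitters' processing notes name kallisto 0.43.0 and the build GRCm38. Which transcript annotation was used is not stated there or in the labels. The authors deposited 1 table of TPM for 115879 transcripts of 46262 genes; it holds no counts, so sequencing depth is unknown. Transcript names, biotypes and coordinates came from GENCODE M21 (GRCm38), which held 114255 of the transcripts, and promoter windows from RefSeq (GRCm38.p6), which had one for 107 of the 149 called genes.

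TPM was summed per gene, and genes with at least 1 TPM in 3 or more libraries were tested on log2(TPM + 1) of the deposited values, a scale that understates changes of low genes. limma 3.58.1 in R 4.3.3 was fitted with a mean for each of 4 groups over all 12 libraries (8 residual degrees of freedom, intensity trend), two-sided, with Benjamini-Hochberg adjustment over all features and a threshold of 0.05. The same model was fitted to transcripts and to log2((transcript + 1)/(rest of the gene + 1)) for transcripts holding 5 to 95% of a gene of at least 5 TPM. The ligand by region contrast tested the interaction. Scripts were tested on simulated data. Tables were made with Python 3.11.15, pandas 2.3.3 and numpy 2.4.6.

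Named genes were the 15 largest rises and 15 largest falls (log2) among called genes with at least 5 TPM in the higher group and a gene symbol that is not a predicted gene, clone or pseudogene, up to 4 members of each of 42 lists by smallest p, 6 receptor genes, up to 8 called transcripts in each direction, the genes of the 12 transcripts with the smallest share p, and the 5 called genes with the smallest interaction p. The comparison and the lists were chosen with earlier results of these data known. Alternatives were another pseudocount, other filters, other scalings, array weights, a replicate block, the forebrain alone and each library left out. Removal of both libraries with the highest length limit, and the interaction with trends removed, were added after seeing the data.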

Additional observations from a re-analysis of the deposited data

Results flagged for a closer look

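The ligand difference itself was set against the same difference in cerebellar microglia by an interaction contrast in limma, and 18 genes passed at an adjusted p under 0.05 (0.145% of those tested), 3 with a more positive change in forebrain and 15 with a more negative one. Of the 18, 12 were listed at 0 TPM in all 6 forebrain libraries and have transcripts of 504 to 648 nt, among them Mt1, Mt2, Atox1 and Cox8a. The same 12 were also at 0 in all cerebellar CSF-1 libraries. Among transcripts of at least 5 TPM cerebellar libraries had a first percentile of length of 503, 491 and 580 nt with IL-34 and of 661, 599 and 592 nt with CSF-1. Transcripts under 600 nt took 0.947 to 3.31% of TPM there with IL-34 and 0.0277 to 0.555% with CSF-1, and the part of this in the result was not tested. The 6 others were Gm6916, Focad, Nup98, Mrps5, Plekhm2 and A230004M16Rik. Mrps5, of the mitochondrial ribosome, was at 30.1, 28.2 and 21.96 TPM with CSF-1 and 13.8, 18.3 and 17.2 TPM with IL-34 in forebrain, with log2 fold changes of -0.67 there and 0.77 in cerebellum. Focad had -0.11 and 1.28, and Plekhm2 -0.36 and 0.46. With transcripts under 1000 nt left out and trends removed, 1 gene passed the interaction, and the forebrain log2 fold change was -0.04 for Mrps5, -0.07 for Plekhm2 and -0.04 for Focad. No gene that was called between the ligands in forebrain was among the 18.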

How the results depend on the processing

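Against 149 genes called in all, other fits called 147 with a pseudocount of 0.1, 178 with a filter of 5 TPM and 165 with quantile normalization. It was 249 with median-of-ratios scaling, 478 with array weights (118 higher, 360 lower), 93 without a filter, 892 with trends removed and 0 in the forebrain alone. It was 41 (12 higher, 29 lower) without both libraries of the highest length limit, and 29 to 163 when each library was left out in turn. The 12 called transcripts became 24 with a pseudocount of 0.1, 37 without a filter, 39 with a filter of 5 TPM, 56 with median-of-ratios scaling, 22 with quantile normalization, 36 with array weights, 144 with trends removed and 0 in the forebrain alone, and 2 to 11 with each library left out. The 0 called shares became 2 with a pseudocount of 0.1, 27 with diffSplice, and 0 to 2 with each library left out. The 18 interaction genes became 1 with trends removed and 12 to 132 with each library left out, the highest without cerebellar IL-34 replicate 3 (29 without cerebellar CSF-1 replicate 3). None of the called genes measured reversed sign with median-of-ratios scaling, quantile normalization or trends removed. The excess of lower over higher genes was not seen in these fits, which called more genes higher than lower. With a replicate block, 0 genes, 0 transcripts, 0 shares and 8 interaction genes passed, with 1295 genes at an unadjusted p under 0.05. Deviations from group means of libraries sharing a number correlated at -0.396, 0.128 and -0.425 in forebrain. The highest correlation, 0.543, was between CSF-1 replicate 3 and IL-34 replicate 1, the 2 libraries with the 669 nt limit. Deviations from means of 3 libraries depend on each other, so these values do not settle whether the numbers pair the samples. Of the 56 called genes named by fold change, list or receptor, 55 stayed called with median-of-ratios scaling, 50 with quantile normalization, 51 with trends removed, 36 without a filter and 18 without forebrain IL-34 replicate 2. Depth is unknown, so the precision of low genes rests on the spread over 3 libraries a group.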
